A study of Homo sapiens with 16 samples.

Results

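The receptor CD28 and its ligand CD86 were each knocked down in human myeloma cells, and the 4 libraries with a short hairpin RNA (shRNA) against CD86 were set directly against the 4 libraries with a shRNA against CD28. These 8 of the 16 RNA sequencing libraries of the series were chosen by their labels, and the other 8 carried the empty vector pLKO.1 (Vec) or a shRNA against Gapdh. The cells were the myeloma lines MM.1s, RPMI8226 and KMS18 and a derivative of RPMI8226 that overexpresses Mcl1, an anti-apoptotic protein, here called the Mcl1 line. Each shRNA was given once to each of these 4 backgrounds. The backgrounds therefore served as the replicates, and RPMI8226 entered through both itself and its derivative. Nothing in the sources used here gives the hairpin sequences, whether more than 1 hairpin was used per target, or the time between delivery and harvest. The comparison asks where knockdown of the ligand and knockdown of the receptor left the cells in different states. Both knockdowns were partial at the RNA level, as the levels of the targets below show, and no protein values were used.

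CD28 is a costimulatory receptor best known from T cells, where binding of CD80 or CD86 on a partner cell adds a second signal to that of the antigen receptor and engages PI3 kinase, GRB2 and VAV1. Plasma cells and myeloma cells also carry CD28, and many myeloma cells carry CD86 as well, so that ligand and receptor can meet between cells of the same kind. CD28 signalling in plasma cells has been linked to survival. A shRNA acts as a small interfering RNA, and its guide strand can also lower other transcripts that match its seed, much as a microRNA does.

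Levels are given as the deposited FPKM, reads scaled to exon length and library size. Differences are given as log2(FPKM + 1) with CD86 shRNA minus CD28 shRNA. On this scale changes of weakly expressed genes come out too small. Unless stated otherwise, 4 values in a row run in the order MM.1s, RPMI8226, KMS18 and the Mcl1 line, and adjusted p-values are from limma with Benjamini-Hochberg adjustment. Reads in genes were 5636086, 5639781, 4515676 and 4509899 in the CD86 shRNA libraries, against 4000275, 4577443, 4311353 and 3914513 in the CD28 shRNA libraries. The CD28 shRNA library was the shallower one in each background. Markers of plasma cells were expressed in each of these libraries, with 9 markers summing to 691 to 1488 FPKM under CD86 shRNA and 868 to 1840 FPKM under CD28 shRNA. Stromal markers summed to at most 2.47 FPKM under CD86 shRNA and 1.63 FPKM under CD28 shRNA. Markers of T cells and myeloid cells were mostly absent, apart from CD8B in both RPMI8226 backgrounds (271 and 210.2 FPKM under CD86 shRNA, 277 and 219.5 FPKM under CD28 shRNA) and from TRAT1, LAT, CD33, CD68 and CLEC7A in some or all backgrounds. CD3E was at 0.737 and 1.08 FPKM with CD86 shRNA in MM.1s and KMS18, against 3.91 and 7.21 FPKM with CD28 shRNA. FCER1G, a myeloid marker, was at 0 and 1.21 FPKM with CD86 shRNA in the same lines, against 4.82 and 3.17 FPKM with CD28 shRNA. The part of these markers in the results was not tested.

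The targeted genes checked the labels. CD86 was at 1.40, 5.28, 1.10 and 2.86 FPKM with CD86 shRNA and at 8.97, 11.3, 3.10 and 12.3 FPKM with CD28 shRNA. Vec libraries held 3.19, 6.92, 2.48 and 5.796 FPKM and Gapdh shRNA libraries 6.46, 6.51, 3.45 and 5.46 FPKM. In each background CD86 was lowest with its own shRNA, and in 3 of 4 it was highest with CD28 shRNA, the exception being KMS18, where Gapdh shRNA was higher. The CD86 shRNA level was 30.3% ± 13.6 (SD, n = 4 backgrounds) of that with CD28 shRNA, a log2 difference of -1.44 (SE 0.20, adjusted p = 0.000372). These levels rest on 28, 106, 18 and 45 reads with CD86 shRNA and on 128, 186, 48 and 168 reads with CD28 shRNA. Read numbers were mostly even, as when both mates of a pair are counted, so the fragments behind these levels may be fewer.

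CD28, the more abundant transcript, was at 58.5, 69.9, 48.9 and 52.8 FPKM with CD86 shRNA and at 42.7, 56.0, 32.5 and 35.7 FPKM with CD28 shRNA. Vec libraries held 65.7, 70.6, 45.8 and 52.9 FPKM and Gapdh shRNA libraries 78.5, 77.1, 47.7 and 49.7 FPKM. CD28 was lowest with its own shRNA in each background, and the CD86 shRNA level was 140% ± 11.8 (SD, n = 4 backgrounds) of it (log2 difference 0.47, SE 0.08, adjusted p = 0.00117). Relative to the shared controls, CD28 was at -0.54 with its own shRNA and CD86 was at -0.80 with its own. The exact sign-flip permutation test over the 4 backgrounds gave a two-sided p of 0.13 for each target, the smallest that 4 pairs allow. GAPDH was at 1099, 1192, 1196 and 1054 FPKM with CD86 shRNA against 1239, 1265, 1387 and 1100.0 FPKM with CD28 shRNA (log2 difference -0.13, adjusted p = 0.785). It was thus slightly lower in each background, and the same permutation test gave 0.13. The spread in the fit includes the Gapdh shRNA libraries, where GAPDH was at 629.5, 402.3, 132.8 and 209.5 FPKM. With only the 8 libraries its adjusted p was 0.203 in limma.

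**Figure D1:**
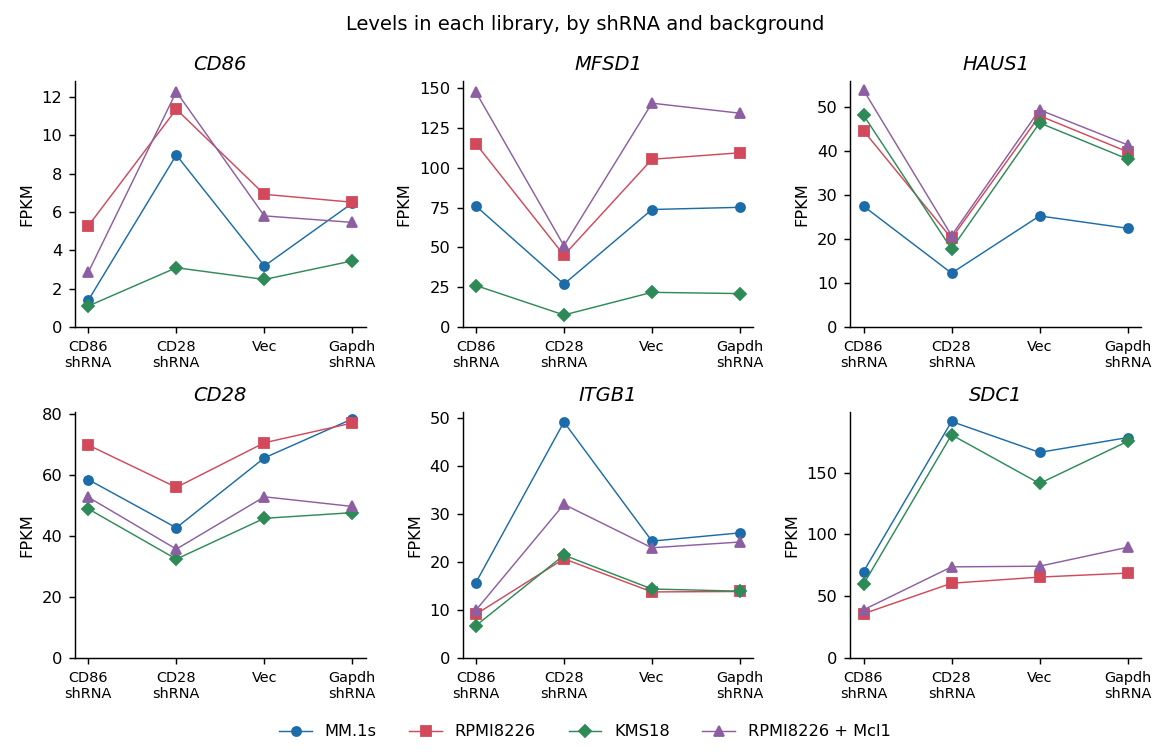
Levels (FPKM, linear axes from 0) of both targets and of 4 other genes in each of the 16 libraries, with CD86 shRNA on the left, then CD28 shRNA, Vec and Gapdh shRNA; colours and symbols mark the 4 backgrounds and lines join libraries of 1 background. MFSD1 and HAUS1 dipped with CD28 shRNA alone, SDC1 dipped with CD86 shRNA alone, and ITGB1 was lowest with CD86 shRNA and highest with CD28 shRNA in each background.

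Of 11349 genes that averaged 1 FPKM or more, 2122 (18.7%) differed between the knockdowns, 1208 (10.6%) higher and 914 (8.05%) lower with CD86 shRNA. A common rescaling of the libraries by the median of ratios turned this split to 956 higher and 1076 lower (47% higher, against 56.9%), so the balance between the directions depends on the scaling. The difference had the same sign in all 4 backgrounds for 3853 tested genes (34%) and for 1966 of the 2122. Most differences were small, with a median size of 0.44 on the log2 scale among the genes past the threshold, and 68 genes reached 1 (43 higher and 25 lower). In the authors' deposited table, 661 genes were higher and 884 lower with CD86 shRNA at a false discovery rate under 0.05. That table is named as leaving out Gapdh shRNA and RPMI8226 with Mcl1, so these counts may rest on other libraries. With only the 8 libraries of these knockdowns the count was 712, and leaving out the Mcl1 line gave 1076, RPMI8226 1304, MM.1s 1380 and KMS18 1416. A core of 570 genes passed in all of these fits.

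The 12 genes named for the largest higher and the 12 for the largest lower differences were past the threshold in each of those reduced fits. To show what they share in sequence before their values, the 3′ untranslated regions (3′ UTRs) of 10551 tested genes were searched for each stretch of 7 bases, read in the sense of the transcript, with the ranking made on 3 backgrounds and the description taken from the background left out. Whichever background was left out, the same overlapping pairs led on both sides. The rankings share most of their libraries. RPMI8226 and the Mcl1 line share an origin, and each stayed in the ranking when the other was left out. CTGTGTT and TGTGTTA, which join to CTGTGTTA, led among genes higher with CD86 shRNA. TTCAAGC and TCAAGCA, which join to TTCAAGCA, led among genes lower with CD86 shRNA. The first pair is called the receptor-arm sequence, since its genes were the lower ones with CD28 shRNA, and the second the ligand-arm sequence. At least 1 of the first pair occurs in 31.5% of the searched 3′ UTRs and at least 1 of the second in 20.7%. Such a match describes the transcript and is not a measured binding site, and as the hairpin sequences are not given, a relation to either hairpin was not tested.

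The following 30-base windows, from GENCODE v29 transcripts on GRCh38, are shown for genes with the largest differences, with capitals for the bases that match the receptor-arm or ligand-arm sequence. Each lies in a 3′ UTR and is written in the direction of the transcript. The first 5 genes were higher with CD86 shRNA and hold the receptor-arm sequence.
MFSD1, chr3:158829555-158829584, plus strand: atttcttatttCTGTGTTActgaggaccct
C20orf27, chr20:3753561-3753590, minus strand: acccctcaggtCTGTGTTActtggttttta
TMEM183A, chr1:203023263-203023292, plus strand: ggccctgttttCTGTGTTAaaaccccattt
B4GALT1, chr9:33111305-33111334, minus strand: agtggtaacttCTGTGTTAttttactctta
HAUS1, chr18:46128212-46128241, plus strand: aacaaaactttCTGTGTTcttagattacag
The next 4 genes were lower with CD86 shRNA and hold the ligand-arm sequence.
CCDC167, chr6:37483049-37483078, minus strand: ccaacctagtgTTCAAGCAtggcttcctgg
SDC1, chr2:20201908-20201937, minus strand: ccgccgcctctTTCAAGCAgtcgtgcctgt
DUSP5, chr10:110510713-110510742, plus strand: cgccttttcatTTCAAGCAtaaggcaataa
ITGB1, chr10:32900873-32900902, minus strand: cactttacaaaTTCAAGCcttagataaaag
The last pair of windows comes from CD28 itself, whose 3′ UTR holds both full sequences, while that of CD86 holds none of the 4 stretches.
CD28, chr2:203738472-203738501, plus strand: ggtgagggagtCTGTGTTAtctgcaaggcc
CD28, chr2:203738019-203738048, plus strand: actaatttcacTTCAAGCAgggtacgtttc

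Among the 357 tested genes with the full receptor-arm sequence and no ligand-arm match, 30.8% were higher and 3.08% lower with CD86 shRNA, with a median log2 difference of 0.20. Among the 1816 with a 7-base receptor-arm match alone, 19.9% were higher and 4.35% lower (median 0.10). Of the 295 genes with the full ligand-arm sequence and no receptor-arm match, 5.08% were higher and 22.7% lower (median -0.10), and of the 742 with a 7-base match alone, 4.58% were higher and 16.7% lower (median -0.09). Genes with neither numbered 6191, and 8.08% of them were higher and 8.04% lower (median 0.02). These shares describe the libraries from which the sequences were picked. In the background left out of the ranking, genes with TGTGTTA had medians of 0.13, 0.09, 0.08 and 0.10, against 0.04, 0.00, 0.00 and 0.00 for genes without it. Genes with TCAAGCA had medians of -0.03, -0.02, -0.04 and -0.04, against 0.06, 0.02, 0.01 and 0.02 without it. The other member of each pair gave smaller medians. These were 0.105, 0.080, 0.058 and 0.079 with CTGTGTT and -0.013, -0.017, -0.033 and -0.032 with TTCAAGC. Matched genes have longer 3′ UTRs (a median of 2654 bases for the full receptor-arm sequence and 765 bases for genes with neither). Among 3′ UTRs of up to 557 bases, 5 of 14 genes with the full receptor-arm sequence were higher and 6 of 17 with the full ligand-arm sequence were lower, against 8.45% higher and 7.62% lower among 2415 genes with neither. Among 3′ UTRs of 2666 bases or more, 29.4% of 177 genes with the full receptor-arm sequence were higher and 13.2% of 129 with the full ligand-arm sequence were lower, against 6.95% higher and 9.07% lower among 518 genes with neither. In these long 3′ UTRs a 7-base ligand-arm match alone gave 13.8% lower, so the full sequence did not stand further out.

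**Figure D2:**
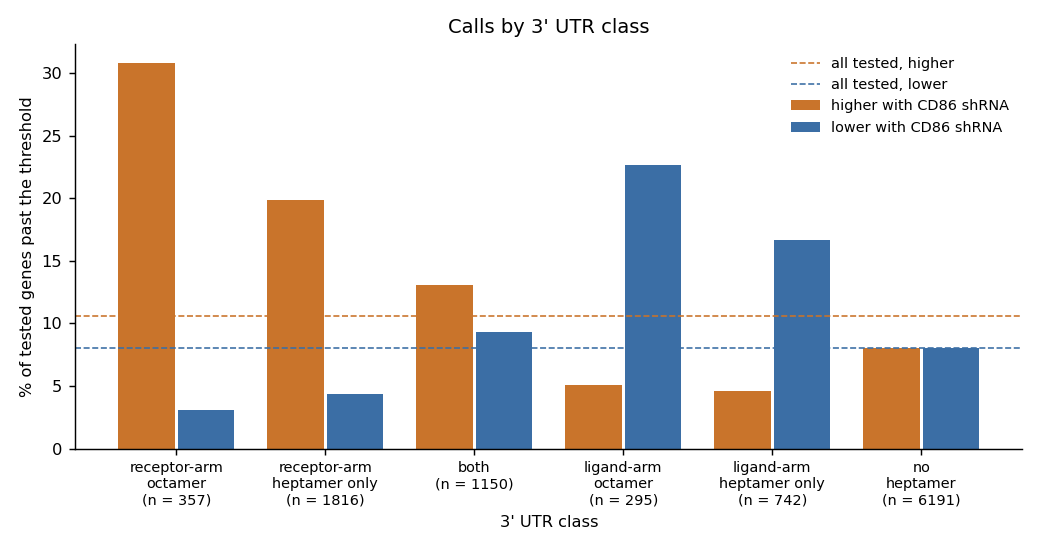
Percentage of tested genes past the threshold (vertical axis, bars from 0) that were higher (orange) or lower (blue) with CD86 shRNA than with CD28 shRNA, by which sequence the 3′ UTR holds; n is the number of tested genes and dashed lines mark all tested genes (10.6% higher, 8.05% lower). Higher calls reach 30.8% with the full receptor-arm sequence, lower calls reach 22.7% with the full ligand-arm sequence, and genes with neither sit near 8% in both directions.

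Against the shared Vec and Gapdh shRNA libraries, genes with the full receptor-arm sequence had a median of 0.06 with CD86 shRNA and -0.11 with CD28 shRNA. Genes with the full ligand-arm sequence had a median of -0.06 with CD86 shRNA and 0.02 with CD28 shRNA. Both comparisons use the same 8 control libraries. Of the 2122 genes, 1170 of the higher and 886 of the lower ones had a searched 3′ UTR; 53.1% of those higher ones held a receptor-arm match and 33.6% of those lower ones a ligand-arm match. The main gene groups are therefore also counted over members that hold none of the 4 stretches. Such a count leaves out only these stretches, picked from the same libraries, in the longest 3′ UTR of each gene. Other or shorter matches, and matches elsewhere in the transcripts, were not tested, so the count does not clear a group of sequence effects. A match is not stated for every gene named below.

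Among the genes higher with CD86 shRNA, MFSD1, a lysosomal membrane transporter, had the smallest adjusted p of the 24. MFSD1 was at 76.0, 115, 26.1 and 147 FPKM with CD86 shRNA and at 27.0, 45.1, 7.66 and 51.1 FPKM with CD28 shRNA. Vec libraries held 73.8, 105, 21.9 and 140.5 FPKM, close to those with CD86 shRNA. The log2 difference was 1.49 (SE 0.06, adjusted p = 1.10e-08), and the low libraries were those with CD28 shRNA in each background. HAUS1, a subunit of the augmin complex of the mitotic spindle, had the same shape, at 27.5, 44.7, 48.2 and 53.9 FPKM with CD86 shRNA and 12.3, 20.2, 17.8 and 20.9 FPKM with CD28 shRNA (log2 difference 1.23, SE 0.07, adjusted p = 2.55e-07). Its lowest CD86 shRNA library, MM.1s, was above its highest CD28 shRNA library, so these groups did not overlap.

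PVRL1, the cell adhesion molecule nectin-1, had the largest higher difference, 1.79 (SE 0.18, adjusted p = 3.25e-05). It was at 33.9, 25.7, 28.1 and 32.5 FPKM with CD86 shRNA and at 14.1, 10.4, 4.29 and 5.96 FPKM with CD28 shRNA, and the groups did not overlap. In KMS18 and the Mcl1 line the CD86 shRNA level was also above that of Vec (14.7 and 19.7 FPKM). C20orf27 (1.64), KIFAP3, an adaptor of kinesin-2 (1.49), and TMEM183A (1.26) followed. PUDP, a pseudouridine 5′-phosphatase (1.43), GID8, a subunit of the CTLH ubiquitin ligase (1.28), and B4GALT1, a galactosyltransferase of the Golgi (1.27), were higher too. So were SBDS, which matures the large ribosomal subunit (1.24), GTF3C6, a subunit of the RNA polymerase III factor TFIIIC (1.22), and VPS4B, an ATPase of the ESCRT machinery (1.19). Of these 12 genes, 8 held a receptor-arm match alone, GID8 held both, and PUDP, GTF3C6 and VPS4B held none.

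ITGB1, the integrin beta-1 chain through which myeloma cells bind fibronectin and stroma, was at 15.7, 9.11, 6.74 and 9.96 FPKM with CD86 shRNA and at 49.1, 20.6, 21.4 and 32.0 FPKM with CD28 shRNA. Vec libraries lay between them at 24.3, 13.8, 14.4 and 22.9 FPKM. The log2 difference was -1.45 (SE 0.11, adjusted p = 2.88e-06). Relative to the shared controls ITGB1 was at -0.83 with CD86 shRNA and at 0.62 with CD28 shRNA, on opposite sides of them. SDC1, which encodes the plasma cell surface proteoglycan CD138, was at 69.9, 35.8, 59.7 and 39.0 FPKM with CD86 shRNA and at 191, 60.5, 180.5 and 73.7 FPKM with CD28 shRNA (log2 difference -1.17, SE 0.11, adjusted p = 1.80e-05). The low libraries were those with CD86 shRNA in each background, and relative to the controls SDC1 was at -1.15 with CD86 shRNA and 0.01 with CD28 shRNA.

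CXCR3, a receptor for interferon-induced chemokines, was at 9.41, 2.02, 0.958 and 2.98 FPKM with CD86 shRNA and at 41.0, 5.16, 6.86 and 7.99 FPKM with CD28 shRNA (-1.55, adjusted p = 0.000181). It was lower with CD86 shRNA within each background, while the groups overlapped across backgrounds because MM.1s was high in both. CCDC167 (-1.55), the adaptor SH2D3C (-1.50) and SNN (-1.23) were lower by similar amounts. MSMO1, a demethylation enzyme of cholesterol synthesis (-1.18), SERPINH1, the collagen chaperone HSP47 of the endoplasmic reticulum (ER) (-1.05), and DUSP5, a phosphatase of ERK (-1.04), were lower as well. The last 2 of the 12 were MX1, an interferon-induced GTPase (-1.40), and IRF7, an interferon transcription factor (-1.10). Among these 12 genes, which include CD86, 6 held a ligand-arm match alone, SDC1 held both, and CXCR3, CD86, MX1, IRF7 and SERPINH1 held none.

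**Figure D3:**
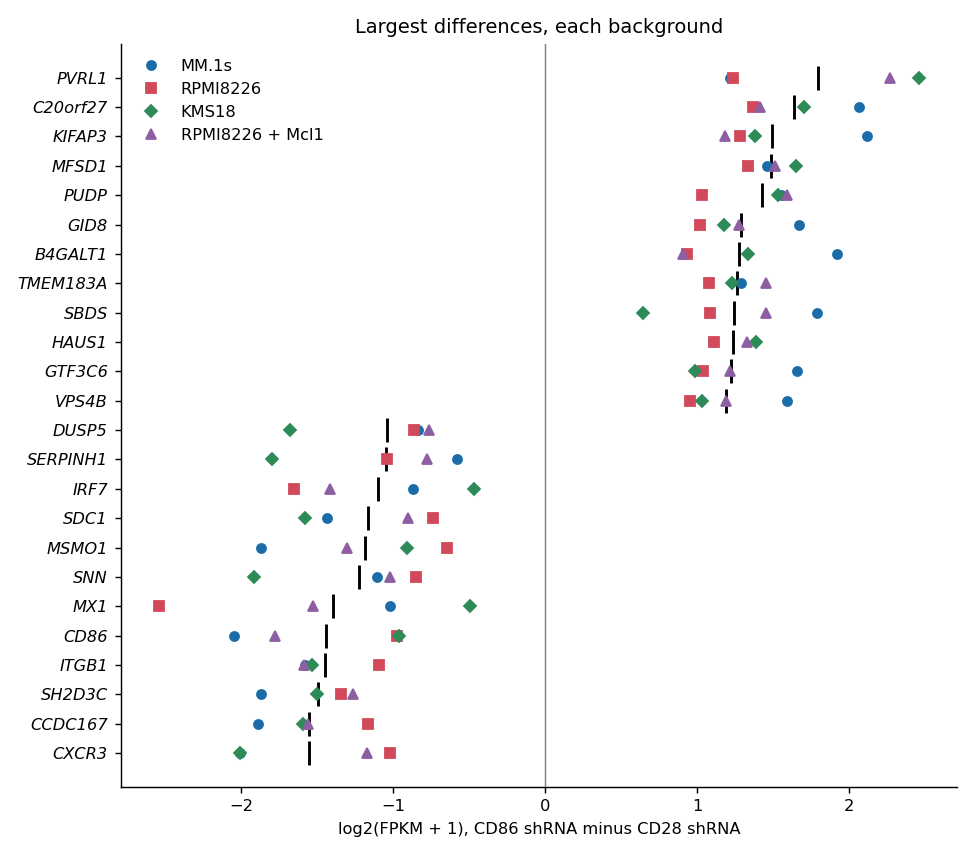
Difference in log2(FPKM + 1), CD86 shRNA minus CD28 shRNA (horizontal axis), for the 12 genes with the largest higher and the 12 with the largest lower difference; symbols are the 4 backgrounds and vertical ticks their mean. The mean runs from 1.79 for PVRL1 to -1.55 for CXCR3, and MX1 shows a wide spread, with RPMI8226 furthest to the left.

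Of 37 tested ER chaperones and folding enzymes, 23 were lower and 1 was higher with CD86 shRNA (62.2% lower, against 8.05% of all tested genes), with a median log2 difference of -0.34 against 0.03 for all tested genes. CALR, the calcium-binding chaperone calreticulin, was at 395, 572, 532 and 601 FPKM with CD86 shRNA and at 668, 733, 794 and 801 FPKM with CD28 shRNA (-0.53, adjusted p = 8.06e-05). Its values did not overlap between the groups. HYOU1, an ER chaperone of the HSP70 family (-0.69), and MZB1, a chaperone of antibody assembly (-0.44), were lower, and EDEM3, which trims sugars of misfolded proteins and holds the full receptor-arm sequence, was higher (0.88). Among the 24 members with none of the 4 stretches, 16 were lower and 0 higher (median -0.38). The list's median was -0.47 in MM.1s and KMS18 and -0.17 in RPMI8226 and the Mcl1 line. Its lower count was 13 without MM.1s, 19 without RPMI8226, 9 without KMS18, 17 without the Mcl1 line and 7 with only the 8 libraries. Relative to the shared controls its median was -0.37 with CD86 shRNA and -0.04 with CD28 shRNA.

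Of 56 genes for ER translocation, glycosylation and COPII export, 25 were lower and 2 higher (44.6% lower, median -0.18). SEC24D, a cargo adaptor of COPII coats (-0.71), SSR1, a subunit of the translocon-associated complex (-0.71), MCFD2, a cargo receptor subunit (-0.51), and SPCS3, a subunit of the signal peptidase (-0.51), were lower. Of the 33 members with no stretch, 13 were lower and 1 higher. The lower count was 16 without RPMI8226, 16 without the Mcl1 line, 11 without KMS18 and 7 with only the 8 libraries. Of 30 plasma cell regulators and surface markers, 9 were lower and 0 higher (median -0.14), among them SDC1, MZB1 and TXNDC5, an ER thiol oxidoreductase (-0.43). CD38, a surface enzyme used as a myeloma target, was at 9.63, 11.6, 1.92 and 16.7 FPKM with CD86 shRNA and at 25.3, 15.7, 6.83 and 27.9 FPKM with CD28 shRNA (-0.96, adjusted p = 0.00372). Of the 19 members with no stretch, 6 were lower. Without KMS18 5 of the list were lower, and 1 was higher.

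Of 41 integrin and adhesion genes, 11 were lower and 0 higher (26.8% lower, median -0.20). Beside ITGB1 and SDC1 these included the tetraspanin CD82 (-0.78) and the dystroglycan gene DAG1 (-0.68). Of the 24 members with no stretch, 8 were lower. The count was 5 without MM.1s, where 2 were also higher, 5 without the Mcl1 line and 3 with only the 8 libraries, and the median was -0.38 in MM.1s against -0.10 to -0.13 in the others. Of 36 genes of cholesterol and fatty acid synthesis, 13 were lower and 2 higher (36.1% lower, median -0.26). SREBF1, the transcription factor of lipid synthesis, was at 5.41, 63.2, 13.6 and 55.2 FPKM with CD86 shRNA and at 16.6, 98.2, 27.4 and 95.0 FPKM with CD28 shRNA (-0.95, adjusted p = 5.58e-05). The higher ones were IDI1, an isomerase of the isoprenoid pathway (0.84), and ACLY, which makes cytosolic acetyl-CoA (0.55), and both hold a receptor-arm match. Of the 20 members with no stretch, 7 were lower and 0 higher. The lower count was 4 without the Mcl1 line, 7 without MM.1s, 8 without KMS18 and 3 with only the 8 libraries.

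Of 37 tested interferon response genes, 11 were lower and 0 higher (29.7% lower), with a median of -0.39 in the fit, -0.85 in RPMI8226, -0.43 in the Mcl1 line, -0.10 in MM.1s and 0.00 in KMS18. MX1 was at 1.95, 12.02, 1.64 and 7.17 FPKM with CD86 shRNA and at 4.996, 75.0, 2.72 and 22.6 FPKM with CD28 shRNA. The RPMI8226 library with CD28 shRNA stood highest, against 16.7 FPKM in Vec of the same line. IFIT3, an interferon-induced antiviral protein, was at 1.09, 2.38, 0.266 and 1.52 FPKM with CD86 shRNA and at 2.74, 15.1, 0.842 and 4.28 FPKM with CD28 shRNA (-1.18, adjusted p = 0.00363), again with RPMI8226 and CD28 shRNA highest. BST2, a surface protein that tethers virus particles, was lower by less but in each background (-0.46, adjusted p = 0.000316). Of the 24 members with no stretch, 7 were lower. The lower count was 4 without RPMI8226, 5 without the Mcl1 line and 5 with only the 8 libraries. With voom on the recovered reads of all 16 libraries it was 18. Relative to the controls the list's median was -0.04 with CD86 shRNA and 0.38 with CD28 shRNA. A role of the CD28 shRNA library of RPMI8226 alone in this list was not tested beyond the counts without that background.

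**Figure D4:**
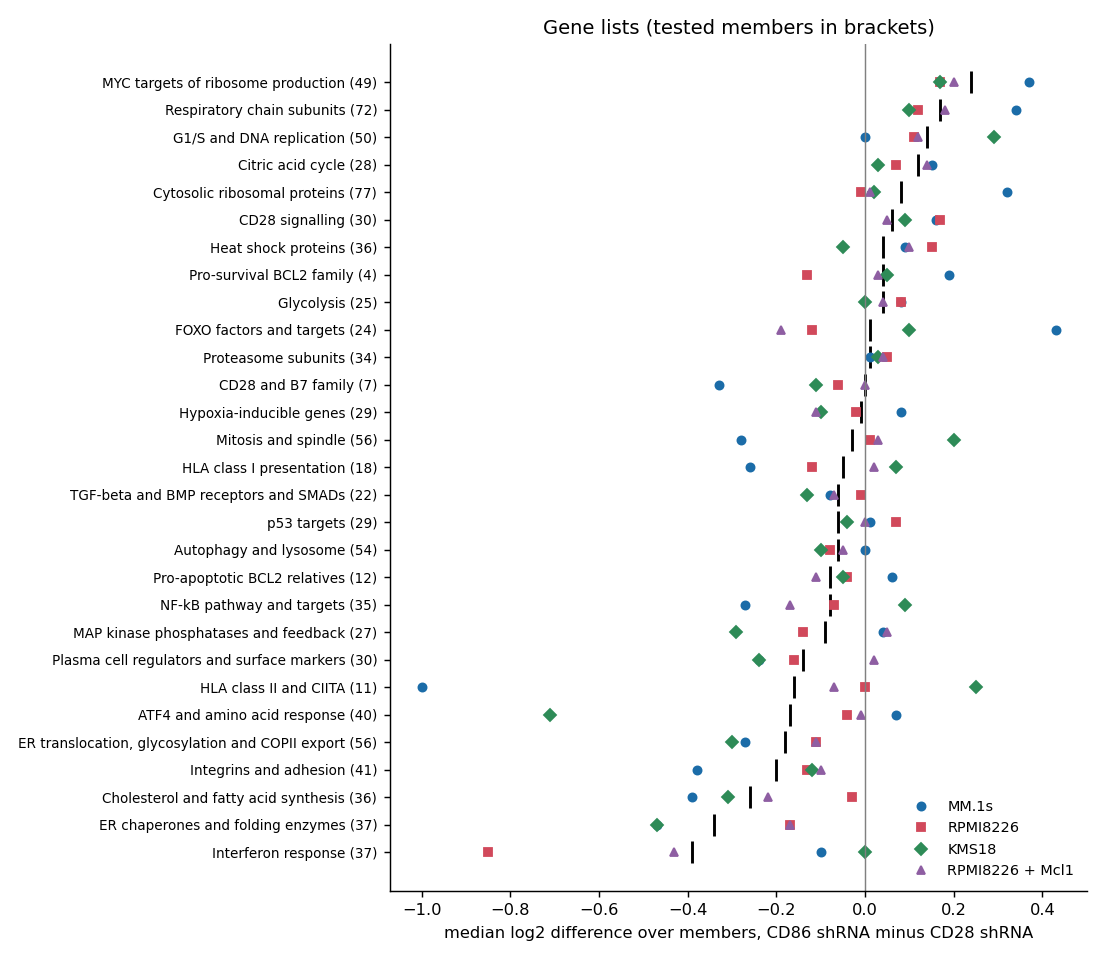
Median log2 difference, CD86 shRNA minus CD28 shRNA, over the tested members of 29 gene lists (horizontal axis); black ticks are the median of the fitted differences and coloured symbols the median in each background, with the number of tested members in brackets. ER chaperones and interferon response lie lowest, at -0.34 and -0.39, and MYC targets of ribosome production highest, at 0.24. The HLA class II, interferon and ATF4 lists are spread widely between backgrounds.

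Of 49 MYC targets of ribosome production, 23 were higher and 1 lower (46.9% higher, against 10.6% of all tested genes; median 0.24). The list also holds MYC targets outside ribosome production, such as LDHA, the glycolytic lactate dehydrogenase, which was among the higher ones (0.40). NOLC1, a nucleolar phosphoprotein, was at 91.8, 94.5, 84.3 and 96.8 FPKM with CD86 shRNA and at 50.8, 55.3, 52.9 and 58.1 FPKM with CD28 shRNA (0.75, adjusted p = 1.18e-05), without overlap between the groups. FBL, the methyltransferase fibrillarin (0.45), and POLR1C, a subunit of RNA polymerases I and III (0.48), were higher as well. NOLC1 and LDHA hold a receptor-arm match, POLR1C holds the full ligand-arm sequence and FBL holds no match. Of the 35 members with none of the 4 stretches, 13 were higher and 1 lower. The higher count was 13 after rescaling by the median of ratios, 9 without MM.1s, 12 without RPMI8226, 10 without the Mcl1 line and 6 with only the 8 libraries. Relative to the controls the median was 0.03 with CD86 shRNA and -0.19 with CD28 shRNA. Of cytosolic ribosomal proteins 7 of 77 were higher (9.09%), near the share of all tested genes, and 0 were lower, against 8.05%. The estimate was above 0 for 70 of them and below 0 for 7, with a median of 0.08. Their median was 0.32 in MM.1s and -0.01 to 0.02 in the others, and 1 was higher without KMS18 or without the Mcl1 line.

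Of 72 subunits of the respiratory chain, 27 were higher and 1 lower (37.5% higher, median 0.17). UQCR10 of complex III was at 112, 74.9, 40.01 and 82.4 FPKM with CD86 shRNA and at 65.5, 56.5, 29.4 and 43.3 FPKM with CD28 shRNA (0.63, adjusted p = 0.000176). NDUFB8 and NDUFA13 of complex I (0.69 and 0.59) and the electron carrier CYCS (0.41) were higher too. UQCR10 and NDUFB8 hold a receptor-arm match, CYCS holds matches of both kinds and NDUFA13 holds no match. Of the 46 members with no stretch, 15 were higher and 1 lower. The higher count was 12 without MM.1s, 13 without the Mcl1 line, 17 without RPMI8226 and 7 with only the 8 libraries. In the citric acid cycle list 7 of 28 were higher and 2 lower (25.0% higher), led by SUCLA2, a succinyl-CoA ligase subunit (1.18). IDH1, which followed (1.08), is a cytosolic isocitrate dehydrogenase and not an enzyme of the mitochondrial cycle. SUCLA2 and IDH1 hold a receptor-arm match, and of the 13 members with no stretch 1 was higher and 1 lower. Without the Mcl1 line 3 of the list were higher and 0 lower, and with only the 8 libraries 2 were higher and 0 lower. For G1/S and DNA replication 12 of 50 were higher and 2 lower (24.0% higher). Over the 36 members with no stretch, 7 were higher and 1 lower. The helicase subunit MCM3 (0.47) and the flap nuclease FEN1 (0.34) were higher, and both hold a receptor-arm match. DSCC1, which holds no match, was higher by more (0.72). The single-strand binding protein RPA1, which holds a ligand-arm match, was lower (-0.50). The higher count was 6 without MM.1s, 7 without RPMI8226, 4 without KMS18, 4 without the Mcl1 line, 7 after rescaling by the median of ratios and 3 with only the 8 libraries. Mitosis and spindle genes were near the background in both directions, with 6 of 56 higher and 6 lower, and 1 higher and 1 lower with only the 8 libraries.

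**Figure D5:**
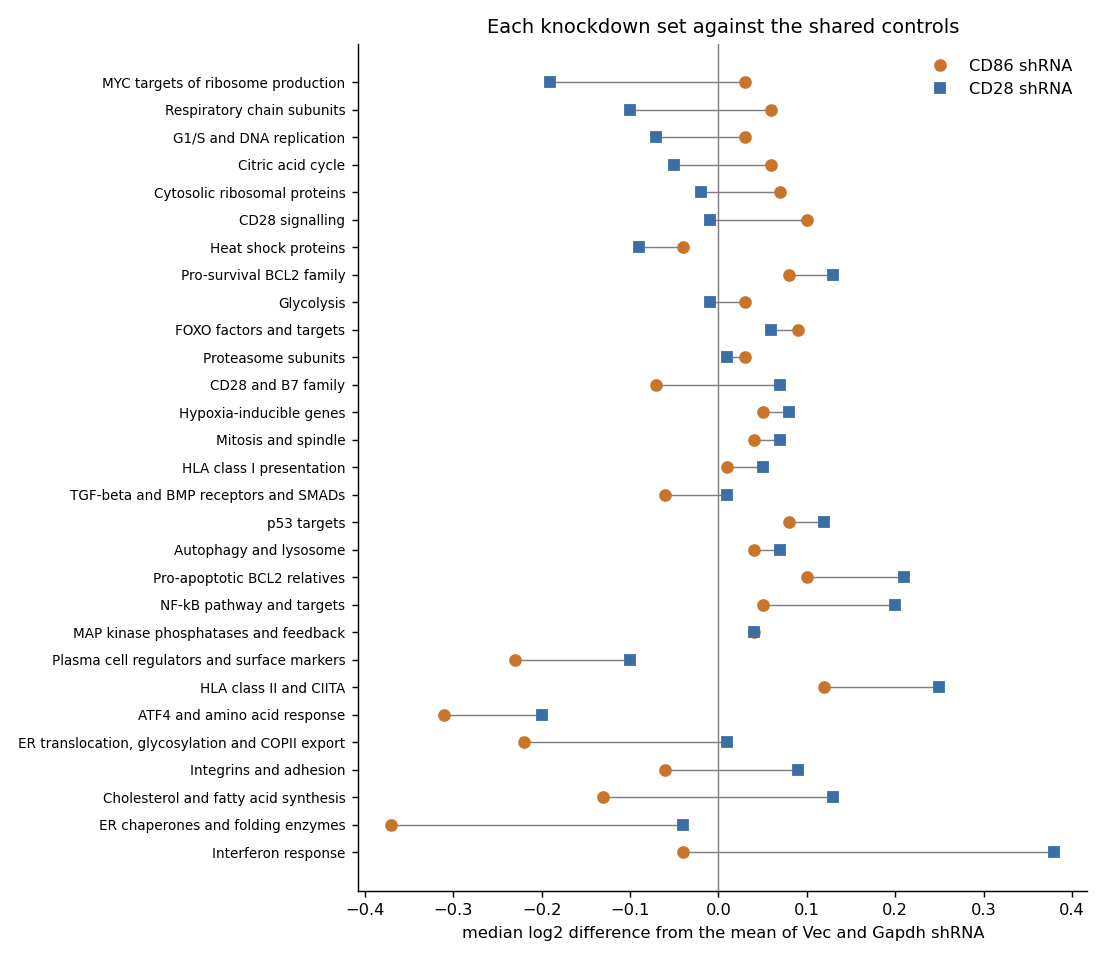
Median log2 difference from the mean of the Vec and Gapdh shRNA libraries (horizontal axis) over the tested members of each list, for CD86 shRNA (orange circles) and CD28 shRNA (blue squares), which share these control libraries. ER chaperones lie at -0.37 with CD86 shRNA and -0.04 with CD28 shRNA, MYC targets of ribosome production at 0.03 with CD86 shRNA and -0.19 with CD28 shRNA, and interferon genes at -0.04 with CD86 shRNA and 0.38 with CD28 shRNA.

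Of 4 tested pro-survival genes of the BCL2 family, 1 was higher and 1 lower with CD86 shRNA. BCL2L1, which encodes the anti-apoptotic protein BCL-XL, was at 188, 92.4, 63.9 and 95.7 FPKM with CD86 shRNA and at 89.0, 61.9, 45.4 and 49.8 FPKM with CD28 shRNA. It was higher with CD86 shRNA in each background (0.76, SE 0.09, adjusted p = 0.000162), and relative to the controls it was at 0.11 with CD86 shRNA and -0.65 with CD28 shRNA. BCL2, its anti-apoptotic relative, was at 12.2, 11.4, 17.1 and 10.8 FPKM with CD86 shRNA and at 17.3, 19.7, 22.6 and 23.7 FPKM with CD28 shRNA (-0.67, SE 0.10, adjusted p = 0.000673), and the groups did not overlap. Relative to the controls BCL2 was at -0.48 with CD86 shRNA and 0.18 with CD28 shRNA. MCL1 did not pass, with 121%, 79.2%, 138% and 103% of the CD28 shRNA level with CD86 shRNA, above it in 3 backgrounds and under it in RPMI8226. BCL2L1 holds a 7-base receptor-arm match and BCL2 holds matches of both kinds. Among 12 pro-apoptotic relatives 2 (16.7%) were higher, BCL2L11, which encodes BIM (0.46), and BAD (0.25), and 2 (16.7%) were lower, BBC3, which encodes PUMA (-0.73), and BID (-0.41). The shares over all tested genes were 10.6% and 8.05%, and each of the 4 lost its call with only the 8 libraries and with at least 1 background left out. BBC3 was 18.7 FPKM with CD86 shRNA and 18.6 FPKM with CD28 shRNA in MM.1s.

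In the pathway of CD28 itself, 7 of 30 signalling genes were higher and 3 lower (23.3% higher and 10.0% lower, against 10.6% and 8.05% of all tested genes). Over the 13 members with no stretch, 2 were higher and 1 lower. Over all 30 genes the higher count was 4 without RPMI8226, 4 without KMS18, 1 without the Mcl1 line and 0 with only the 8 libraries. With voom on the recovered reads of all 16 libraries it was 8. GRB2, an adaptor that binds the CD28 tail (0.25), and PDPK1, the kinase that activates AKT (0.46), were higher with CD86 shRNA; GRB2 lost its call without the Mcl1 line, and both with only the 8 libraries. VAV1, an exchange factor for RAC (-0.62), and PLCG2, a phospholipase C (-0.61), were lower. GRB2 holds a receptor-arm match and VAV1 a ligand-arm match, while PDPK1 and PLCG2 hold matches of both kinds. Of 7 tested genes of the CD28 and B7 family, the checkpoint ligand CD276 was lower (-0.66) beside CD86, and CD28 was higher; CD276 lost its call without KMS18, without the Mcl1 line and with only the 8 libraries. Of 35 NF-kB pathway genes and targets 2 (5.71%) were higher and 5 (14.3%) lower. Among the lower ones were TNIP1, an inhibitor of the pathway (-0.55), and NFKB2, the p52 precursor (-0.61). NFKB2 lost its call without MM.1s or without the Mcl1 line, and 2 of the list were lower without the Mcl1 line.

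SLC7A5, the large neutral amino acid transporter, was low in both knockdowns but unequally, at 18.2, 63.5, 119 and 76.5 FPKM with CD86 shRNA and 8.47, 23.6, 73.4 and 28.4 FPKM with CD28 shRNA, against 46.6, 83.4, 276 and 120.3 FPKM in Vec. It was the single higher gene of 40 in the ATF4 and amino acid response (1.13, SE 0.14, adjusted p = 0.000172), 2.5% against 10.6% of all tested genes. In that list 4 (10.0%) were lower, near the 8.05% of all tested genes. They included ATF3, a stress transcription factor (-0.65), and PPP1R15A, a regulator of the eIF2 phosphatase (-0.54). The list's median was -0.71 in KMS18 and -0.04 to 0.07 in the others, and the lower calls were lost without KMS18, while voom on recovered reads gave 13 lower ones.

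The counts of the following lists stand against 10.6% higher and 8.05% lower over all tested genes. Of 54 autophagy and lysosome genes, 6 (11.1%) were higher, among them MFSD1 and BECN1, a subunit of the autophagy PI3 kinase (0.68). Another 10 (18.5%) were lower, among them MAP1LC3B, the autophagosome protein LC3B (-0.71). Of 22 TGF-beta and BMP genes 1 (4.55%) was higher and 4 (18.2%) lower. The ligand TGFB1 was at 11.1, 38.6, 27.3 and 42.0 FPKM with CD86 shRNA and 31.8, 59.2, 53.8 and 76.9 FPKM with CD28 shRNA (-0.96, adjusted p = 0.000303). The receptor gene TGFBR2 was lower as well (-0.66). For p53 targets 4 of 29 were higher and 6 lower, for glycolysis 4 of 25 higher and 2 lower, and for heat shock proteins 5 of 36 higher and 3 lower. Of 27 MAP kinase phosphatase and feedback genes 2 (7.41%) were higher and 4 (14.8%) lower. FOXO factors and targets gave 4 of 24 (16.7%) higher and 2 (8.33%) lower, and hypoxia-inducible genes 1 of 29 (3.45%) higher and 2 (6.90%) lower. Proteasome subunits, the targets of a main class of myeloma drugs, gave 2 higher (5.88%) and 1 lower (2.94%) of 34. In HLA class I presentation 0 of 18 were higher and 3 lower, including the peptide trimming enzyme ERAP1 (-0.77), and in the class II list 1 of 11 was higher and 1 lower. With 1 background left out, 3 to 6 autophagy and lysosome genes were higher and 6 to 8 lower, and the others of these lists gave 0 to 4 higher and 0 to 6 lower. With only the 8 libraries these lists gave 0 to 4 higher and 0 to 3 lower each.

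The backgrounds were also compared with each other, because RPMI8226 and the Mcl1 line share an origin. The difference between the knockdowns in these 2 backgrounds, set against that in MM.1s and KMS18, passed the threshold for 1 of 11349 genes (0.00881%) in limma, and 1257 genes had an unadjusted p under 0.05. That gene gives no test of a different response, since it was not expressed in the RPMI8226 backgrounds and its difference there was fixed at 0. It was PKIA, an inhibitor of protein kinase A, which holds the full receptor-arm sequence. It was listed at 0 in both RPMI8226 backgrounds with either shRNA; in MM.1s and KMS18 it was at 5.99 and 9.67 FPKM with CD86 shRNA, against 0.385 and 1.99 FPKM with CD28 shRNA.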

How the data were processed

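RNA of 16 libraries was isolated with Qiagen RNeasy and sequenced after Illumina TruSeq mRNA preparation, per the labels' protocols. The authors deposited FPKM values and exon lengths for 23459 genes, together with log2 fold changes, p-values and false discovery rates of their own comparisons. Per the submitters' processing notes, the tools were edgeR 3.12.1, R 3.2.2, TopHat2 2.0.13 and Picard, and the builds named were mm9, hg19 and GRCh37, all without roles. The deposited table's name marks Gapdh shRNA and RPMI8226 with Mcl1 as left out, which may apply to the authors' comparisons. No source used here states the strand setting. Overlapping, antisense or near-identical genes therefore cannot be told apart.

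FPKM times exon length gave whole reads for 100% of values within 0.02 of a read, and reads were used for depth and for 1 alternative. Read numbers were mostly even, as when both mates of a pair are counted. Differences were fitted with limma 3.58.1 (eBayes with trend, R 4.3.3) on log2(FPKM + 1) for the 11349 genes averaging 1 FPKM or more, with terms for shRNA and background in all 16 libraries (9 residual degrees of freedom). The controls added to the estimate of the spread. P-values were two-sided with a threshold of 0.05, and measure only the spread between these libraries. Each shRNA was given once to each background, so the background paired the libraries by design, and deviations from the shRNA means correlated between the libraries of a background (r 0.885 to 0.921 across genes). The fits were tested on simulated data.

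The longest 3′ UTR per gene in GENCODE v29 (basic set, GRCh38) was found for 93.0% of tested genes, and 16307 of 16384 stretches of 7 bases occurred in at least 30 genes and were ranked. The build of the reads may differ, and no coordinates were converted. Genes named were the targets, up to 12 per direction with the largest difference (past the threshold, same sign in all 4 backgrounds, mean of at least 5 FPKM, exon length of at least 300 bases), and up to 4 per list. The comparison and the gene lists were chosen with earlier results of these data known. Alternatives were the pseudocount, the filter, the scaling, fewer libraries, no block and voom on recovered reads.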

Additional observations from a re-analysis of the deposited data

Results flagged for a closer look

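Of 119 named genes, 10 had 1 background whose difference (CD86 shRNA minus CD28 shRNA, log2(FPKM + 1)) stood apart from the other 3 by Dixon's criterion for 4 values, which chance gives for about 1 in 20 genes. MM.1s stood apart for SPCS3 (-0.919, the others -0.379 to -0.354), FBL (0.735, the others 0.337 to 0.388), RPS14 (0.744, the others 0.095 to 0.182) and PLOD1, a collagen-modifying enzyme (-1.1, the others -0.565 to -0.516). KMS18 stood apart for DUSP5 (-1.68, the others -0.867 to -0.769), JUND (-0.926, the others -0.326 to -0.238) and NFKB2 (-0.0348, the others -0.825 to -0.791). RPMI8226 had the smallest difference for PUDP (1.03, the others 1.53 to 1.59) and ITGB1 (-1.1, the others -1.59 to -1.53), and the Mcl1 line for SUCLA2 (1.02, the others 1.21 to 1.24). The interaction between the RPMI8226 backgrounds and the other lines was -2.08 on the log2 scale for PKIA (limma). PKIA is listed at 0 in all 8 libraries of the RPMI8226 backgrounds and passed the filter through MM.1s and KMS18 alone, so this value reads absent expression and not a different response.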

How the results depend on the processing

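No named gene changed direction under any alternative that gave a value. The count of 2122 genes stayed within 1.5 times under the pseudocounts 0.1 and 5, no filter, a filter at 5 FPKM, rescaling by the median of ratios and voom on recovered reads (1653 to 2534). It was 712 with only the 8 libraries of both shRNAs, where 3 residual degrees of freedom remain, 1363 with RPMI8226 and the Mcl1 line averaged, and 1076 to 1416 with 1 background left out. Without the block for background it was 30 (586 at an unadjusted p under 0.05), and the differences of CD86 (-1.44, adjusted p = 0.357 in limma) and CD28 (0.47, adjusted p = 0.946) did not pass; the pairing comes from the design. Restricted to genes with none of the 4 stretches of 7 bases, an alternative chosen after seeing the data, 918 of 6191 passed. The interaction count of 1 was 0 with a pseudocount of 0.1, a filter at 5 FPKM or only the 8 libraries, and 0 to 55 with 1 background left out; the cause was not tested. Of the named genes, 41 of 119 lost their call with only the 8 libraries. Of those described above, ATF3, PPP1R15A, NFKB2, BCL2L11, BAD and PKIA lost it without MM.1s, PPP1R15A, BBC3, BID and BAD without RPMI8226, CD276, ATF3, PPP1R15A, FEN1, BBC3, BCL2L11, BAD and TGFBR2 without KMS18, and CD276, GRB2, NFKB2, FEN1 and BBC3 without the Mcl1 line. Each knockdown has 1 library per background, so that variation between cultures of a line was not measured. Low genes such as CD86 rest on as few as 18 reads, and on fewer fragments if both mates of a pair were counted.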

Other observations

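Genes with none of the 4 stretches of 7 bases in the 3′ UTR included large differences beyond those named above; these were picked after their values were seen. NTHL1, a DNA glycosylase of base excision repair, was at 24.2, 34.1, 47.5 and 46.5 FPKM with CD86 shRNA in MM.1s, RPMI8226, KMS18 and the Mcl1 line, against 4.99, 19.6, 32.2 and 19.4 FPKM with CD28 shRNA (log2 difference 1.15, adjusted p = 0.000466 in limma). GNPAT, an enzyme of ether lipid synthesis in peroxisomes (0.99), HADH, an enzyme of mitochondrial fatty acid oxidation (0.92), and SNRPD2, a core protein of spliceosomal particles (0.94), were higher with CD86 shRNA as well. The T cell marker CD3E passed the threshold (-0.93, adjusted p = 0.0392 in limma) and was at most 0.179 FPKM in both RPMI8226 backgrounds.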
